A study of Mus musculus with 17 samples.

Results

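Complement is a set of blood and tissue proteins that tag surfaces for removal, and cells control it with regulators and read it out with receptors. This report describes 8 mouse genes of these kinds in the aging hippocampus, chosen by name and mapped to the Ensembl identifiers of the count data, where they are 8 of 38355 genes. The 4 regulators are Serping1, Cd55, Cd59a and Cr1l. The receptors are C3ar1 and C5ar1, together with Itgam and Itgb2, whose products join to form complement receptor 3. PolyA RNA was measured in hand-dissected hippocampus of untreated wild type C57BL/6J mice, and every group shared this strain, genotype and lack of treatment. One experiment compared mice of 3 months (3M, n = 5 libraries) with mice of 24 months (24M, 6 libraries) by single-end sequencing, and the other compared 3M (n = 3) with 29 months (29M, n = 3) by paired-end sequencing. The aged mice of the second experiment had been bought as 24-month-old animals and kept for some further months, and no sex is given in the sources used here. All 24M libraries were single-end and all 29M libraries paired-end, so a difference between the 2 aged groups cannot be told apart from one between library types.

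The pathway begins when C1q, mannose-binding proteins or factor B start a chain of cleavages that runs through C3 and then C5. Fragments of C3 coat a target, and 2 small by-products, C3a and C5a, attract and activate myeloid cells. In the brain most complement receptors are carried by microglia, the resident macrophages, and complement-tagged synapses can be taken up through complement receptor 3. Serping1 encodes the C1 inhibitor, a secreted protease inhibitor that stops C1r and C1s. Cd55 (decay-accelerating factor) speeds the decay of C3 convertases on the cell's own surface, Cr1l (Crry) helps to inactivate C3b and C4b there, and Cd59a blocks assembly of the membrane attack complex. C3ar1 and C5ar1 are the G protein-coupled receptors of C3a and C5a. Itgam (CD11b) is the alpha chain of complement receptor 3, and Itgb2 (CD18) is the beta chain that it shares with the other leukocyte beta2 integrins.

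The libraries held 9213474 to 28438296 counts on genes. Among the 136 pairs of libraries, 24M replicates 1 and 4 differed by less than the sampling noise (mean ratio of squared difference to binomial variance 0.406, against 1.23 for the next lowest pair), and their rounded mean was counted as 1 sample, which leaves n = 5 at 24M. The labels number the libraries without naming animals, so p-values measure the spread between libraries. Levels are given as CPM, which relates a gene's count to the TMM-scaled total of its library. Neuronal markers summed to between 11111 and 13718 CPM in every sample. Choroid plexus markers varied from 2073 to 8613 CPM among the 3M single-end samples and from 3538 to 6457 CPM among the 3M paired-end samples. Striatal markers stood at 799 CPM in 3M single-end replicate 4 and at 239 to 315 CPM in the other 3M single-end samples. Samples of 24M were tested against 3M single-end samples and samples of 29M against 3M paired-end samples (edgeR's quasi-likelihood test, Benjamini-Hochberg adjustment over all genes tested). Genes with an adjusted p up to 0.05 and a log2 fold change of 0.5 or more in size are termed called.

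At 24M, 1 of the 8 genes was called, Itgb2, and it was higher. At 29M, 3 of 7 tested genes were called, Serping1, C3ar1 and Itgb2, all of them higher, and C5ar1 had too few counts to be tested. Over all genes, 1.34% of 15683 were called higher at 24M and 1.34% of 15097 at 29M, while 0.638% and 0.113% were called lower. The median log2 fold change of the 8 genes was 0.44 at 24M, beside -0.0032 over all genes tested, and that of the 7 genes tested at 29M was 0.32, beside -0.0021. All 8 fitted values lay above 0 at 24M and 5 of 7 at 29M, where 49.2% and 49.4% of all genes did. These 8 genes were not chosen on these values, but earlier results of these data were known when they were chosen.

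**Figure D1:**
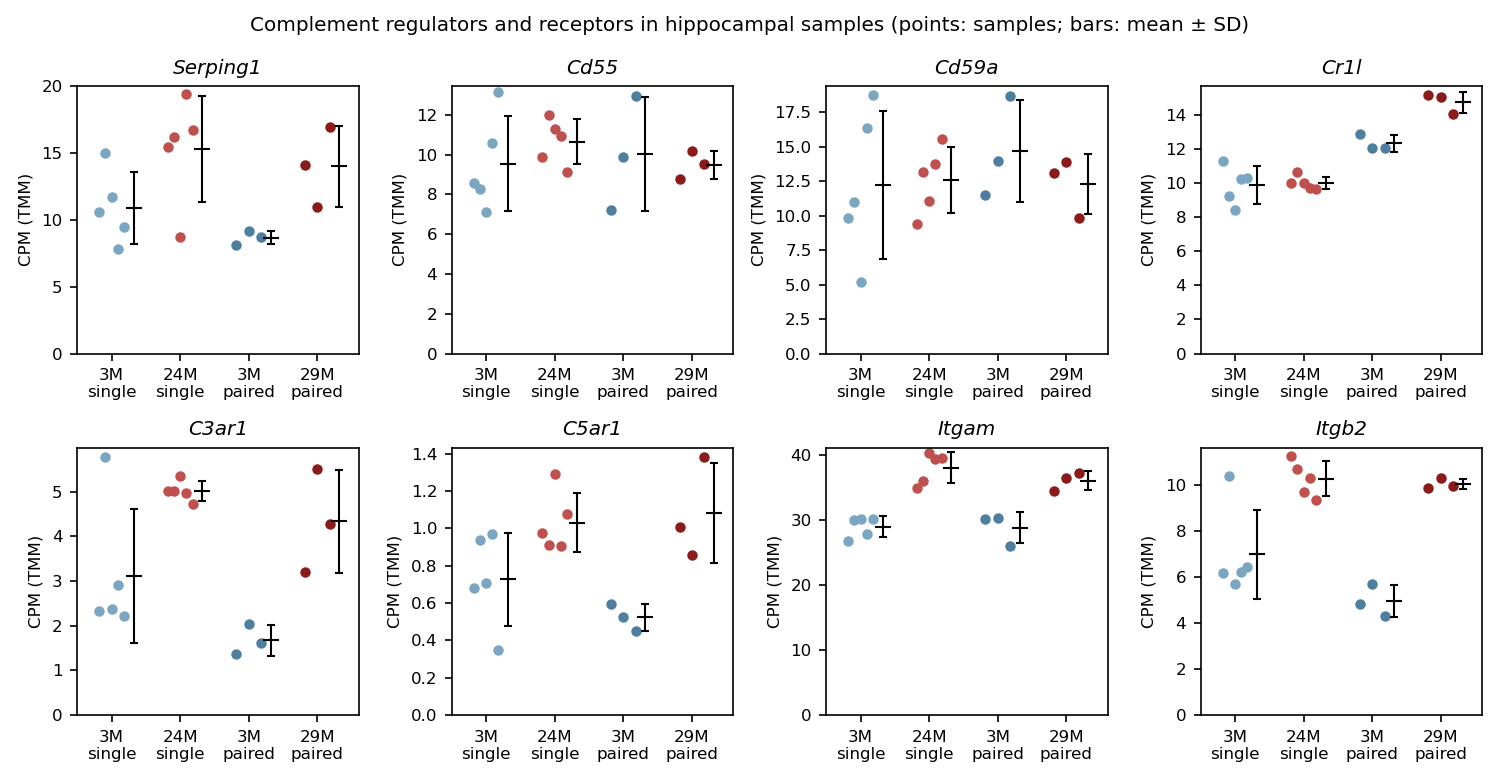
CPM (vertical axis, scaled by TMM, from 0) of each of the 8 genes in every sample of the 4 groups (horizontal axis), with the mean and SD of each group beside the points. Itgb2 lay between 9.35 and 11.3 CPM in all aged samples, and 3M single-end replicate 2 stood at 10.4 CPM above the other 3M samples.

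The levels of the 8 genes spread over more than an order of magnitude once divided by annotated exon length. In the 3M single-end group Cd59a stood at 6.75 ± 2.97 CPM per kb (SD, n = 5), Itgam at 5.77 ± 0.31, Serping1 at 4.70 ± 1.16 and Itgb2 at 2.29 ± 0.63. They were followed by Cd55 at 1.97 ± 0.49 CPM per kb, Cr1l at 0.956 ± 0.106, C3ar1 at 0.724 ± 0.350 and C5ar1 at 0.283 ± 0.097. The ranges of neighbours in this order overlapped, except between Cd55 (1.47 to 2.71) and Cr1l (0.812 to 1.09) and between C3ar1 (0.516 to 1.34) and C5ar1 (0.135 to 0.377). In the 29M group the order per kb was Itgam (7.17 ± 0.29, SD, n = 3), Cd59a (6.78 ± 1.20), Serping1 (6.03 ± 1.30), Itgb2 (3.28 ± 0.07), Cd55 (1.95 ± 0.15), Cr1l (1.42 ± 0.06), C3ar1 (1.01 ± 0.27) and C5ar1 (0.421 ± 0.105). In the 3M group of the same library type Cd59a stood at 8.12 ± 2.03 CPM per kb and Itgam at 5.74 ± 0.47 (SD, n = 3). The 29M ranges of Cd59a (5.42 to 7.67) and Itgam (6.85 to 7.41) overlapped, so their order at 29M is not settled. The exon length joins all annotated isoforms, which for Cr1l comes to 10349 bases. A gene expressed mainly as a short isoform thus has a higher level per base of its own transcript.

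Serping1, the C1 inhibitor gene (ENSMUSG00000023224, GRCm38 chr2:84765387-84775444, minus strand), was the only regulator called at either age. It stood at 8.15, 9.16 and 8.72 CPM in the 3M paired-end samples and at 14.1, 10.9 and 17 CPM in the 29M samples. All 29M samples were above all 3M samples, as for 11.9% of all genes tested. The log2 fold change was 0.70 ± 0.14 (SE, edgeR's quasi-likelihood test, adjusted p = 0.0171). The call was lost without 29M replicate 1 (adjusted p = 0.0915), 29M replicate 3 (0.103), 3M paired-end replicate 1 (0.0501) or 3M paired-end replicate 3 (0.0643), while the log2 fold change stayed between 0.53 and 0.84 in these fits. At 24M the samples read 15.5 (replicates 1 and 4), 16.2, 8.76, 19.5 and 16.8 CPM, against 10.6, 15.0, 11.7, 7.80 and 9.49 CPM at 3M. Replicate 3 lay within the 3M range and the other 24M samples above it. The log2 fold change of 0.48 ± 0.20 did not pass (adjusted p = 0.144). With each library left out in turn it was 0.36 to 0.63 (edgeR adjusted p 0.0495 to 0.275). It was largest without 24M replicate 3, the lowest 24M sample.

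Serping1 levels moved with the markers of several cell types, among them those of border macrophages, the macrophages of the meninges and vessel walls (Mrc1, Cd163, Lyve1, Pf4, F13a1, Cd209f, Cbr2 and Ms4a7). Their summed level was 8.20 to 12.3 CPM in the 3M single-end group and 9.74 to 18.3 CPM at 24M, with 24M replicate 3 lowest for both the markers and Serping1. Over the 10 single-end samples Pearson's r was 0.95 (permutation p = 8e-05, adjusted 0.0166) and Spearman's rho 0.89 (permutation p = 0.00121, adjusted 0.0839), and without the 2 samples farthest from the median marker level r was 0.94. Over the 6 paired-end samples r was 0.90 (exact permutation p = 0.0139, adjusted 0.177) and rho 0.83 (exact permutation p = 0.0583, adjusted 0.347), and r was 0.66 without the 2 farthest samples. These values are adjusted over 208 relations, each of the 8 genes against each of 13 marker lists in both library types, of which 34 had a Pearson p under 0.05 before adjustment and 2 after it. They pool both ages, and no correlation is given for an age group of 5 or 3 samples alone. With the mean of each age group subtracted from both measures, r was 0.95 over the single-end and 0.83 over the paired-end samples. Before adjustment 3 further lists passed for Serping1 in the single-end samples, mural cells (r = 0.77, permutation p = 0.00606, adjusted 0.126; rho 0.78, permutation p = 0.011), monocytes and neutrophils (r = 0.72, permutation p = 0.0161, adjusted 0.177; rho 0.76, permutation p = 0.0144) and fibroblasts and meninges (r = 0.68, permutation p = 0.031, adjusted 0.239; rho 0.68, permutation p = 0.0342). Without the 2 farthest samples these r were 0.67, 0.64 and 0.41. In the paired-end samples homeostatic microglia (r = 0.89, exact permutation p = 0.00972, adjusted 0.169; rho 0.94, exact permutation p = 0.0167) and astrocytes (r = 0.87, exact permutation p = 0.0389, adjusted 0.289; rho 0.77, exact permutation p = 0.103) also passed before adjustment. Without the 2 farthest samples r was 0.86 and 0.87, and with the age group means subtracted it was 0.67 and 0.11. All 7 tested border macrophage markers had log2 fold changes above 0 at 24M and all 4 tested ones at 29M, and none was called at either age (3 and 0 of them at an unadjusted p under 0.05). The part of these cells in the Serping1 difference was not tested.

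Cd55, Cd59a and Cr1l, the regulators anchored in or crossing the cell membrane, were not called at either age. Cd55 (ENSMUSG00000026399, chr1:130439027-130462744, minus strand) ranged from 7.13 to 13.1 CPM at 3M and from 9.14 to 12 CPM at 24M, and its log2 fold change was 0.17 ± 0.15 (SE, edgeR's quasi-likelihood test, adjusted p = 0.498). In the paired-end samples it stood at 7.22, 9.88 and 12.9 CPM at 3M and at 8.75, 10.2 and 9.52 CPM at 29M (log2 fold change -0.08 ± 0.17, adjusted p = 0.862). The 29M samples thus lay inside the 3M range. Cd55 shares 102 exonic bases with the antisense gene Gm16083, whose reads cannot be told apart from its own where counting ignores strand. Cd55b and Cd59b are close relatives of Cd55 and Cd59a, and reads that mapped to more than 1 place were left out of the counts, so these levels are uncertain to that extent.

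Cr1l (ENSMUSG00000016481, chr1:195097382-195131586, minus strand) lay at nearly the same level in both single-end groups. It stood at 9.89 ± 1.10 CPM at 3M and 10.01 ± 0.38 CPM at 24M (SD, n = 5 each, log2 fold change 0.02 ± 0.09, adjusted p = 0.919 by edgeR). At 29M it read 15.1, 15.0 and 14.0 CPM, all above the 3M paired-end values of 12.9, 12.04 and 12.05 CPM. That difference of 0.26 ± 0.09 on the log2 scale did not pass (adjusted p = 0.155).

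Cd59a (ENSMUSG00000032679, chr2:104095801-104115354, plus strand) varied widely between 3M samples. It read 9.82, 11.01, 5.19, 16.4 and 18.7 CPM in the 3M single-end group and 9.38 (replicates 1 and 4), 13.2, 11.03, 13.7 and 15.6 CPM at 24M. The 24M values lay inside the 3M range, and the log2 fold change was 0.04 ± 0.27 (SE, edgeR's quasi-likelihood test, adjusted p = 0.939). At 29M the values were 13.1, 13.9 and 9.81 CPM, against 11.5, 13.9 and 18.7 CPM at 3M (-0.27 ± 0.16, adjusted p = 0.44).

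The spread of Cd59a went with the markers of the choroid plexus and of oligodendrocytes in the single-end samples. The choroid plexus list (Ttr, Folr1, Kl, Clic6, Kcnj13, Slc4a5, Prlr and Otx2) holds genes of the epithelium that makes cerebrospinal fluid. The 3M single-end sample lowest in Cd59a, replicate 3, had a marker sum of 2073 CPM, and the highest, replicate 5, had 8613 CPM. Over the 10 single-end samples r was 0.96 (permutation p = 2e-04, adjusted 0.0208) and rho 0.95 (permutation p = 1e-04, adjusted 0.0208), and r was 0.87 without the 2 farthest samples. Over the 6 paired-end samples r was 0.79 (exact permutation p = 0.0583, adjusted 0.319) and rho 0.77 (exact permutation p = 0.103, adjusted 0.42), with 0.61 for r without the 2 farthest samples. With the age group means subtracted r was 0.97 in both library types. For Cd59a and the oligodendrocyte markers r was 0.87 (permutation p = 0.0026, adjusted 0.0825) and rho 0.77 (permutation p = 0.0122, adjusted 0.193) over the single-end samples, with 0.66 for r without the 2 farthest, and over the paired-end samples r was -0.13 (exact permutation p = 0.793). For Cd55 and the choroid plexus markers r was 0.83 (permutation p = 0.00163, adjusted 0.0691) and rho 0.77 (permutation p = 0.0125, adjusted 0.193) over the single-end samples, and r was 0.63 without the 2 farthest. Over the paired-end samples r was 0.81 (exact permutation p = 0.0472, adjusted 0.289) and rho 0.83 (exact permutation p = 0.0583, adjusted 0.347), with 0.68 for r without the 2 farthest. For Cd55 and the oligodendrocyte markers r was 0.76 (permutation p = 0.00924, adjusted 0.169) and rho 0.61 (permutation p = 0.0655, adjusted 0.378) over the single-end samples, with 0.33 for r without the 2 farthest. None of the 8 choroid plexus markers was called at either age by edgeR or had an unadjusted p under 0.05, and the part of choroid plexus tissue or oligodendrocytes in these levels was not tested.

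**Figure D2:**
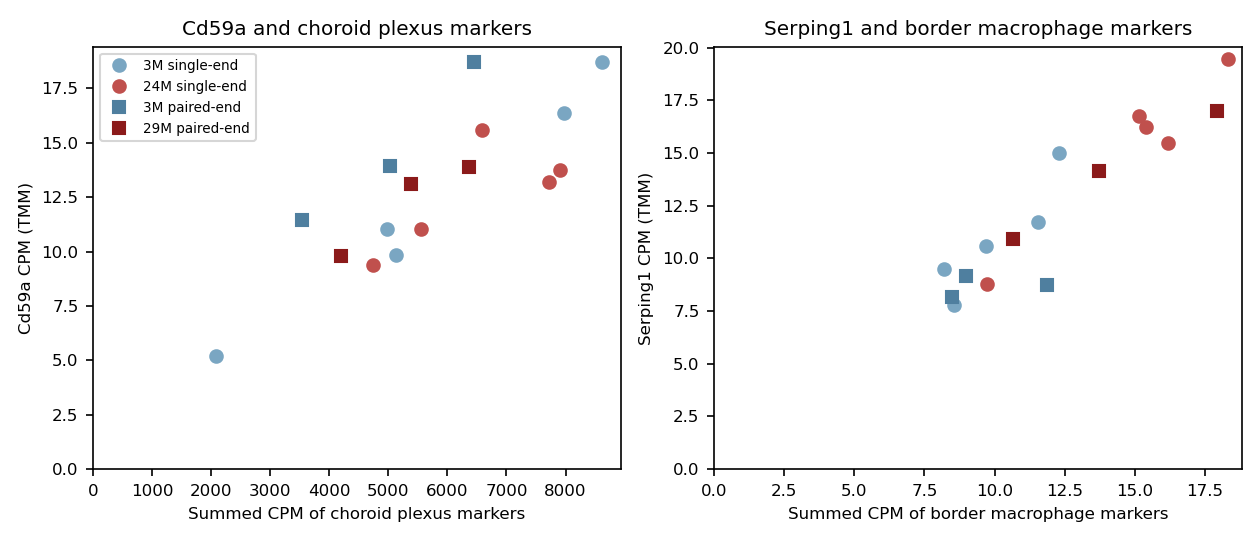
Left, Cd59a CPM (vertical axis) against the summed CPM of 8 choroid plexus markers (horizontal axis), and right, Serping1 CPM against the summed CPM of 8 border macrophage markers, with 1 point per sample, circles for single-end and squares for paired-end libraries. Cd59a reads 5.19 CPM at a marker sum of 2073 CPM and 18.7 CPM at 8613 CPM, and Serping1 is highest, at 19.5 CPM, in the 24M sample with a marker sum of 18.3 CPM.

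C3ar1, the receptor of the C3 fragment C3a (ENSMUSG00000040552, chr6:122847138-122856161, minus strand), had the largest fitted fold change among the tested genes of this set at both ages. It stood at 1.36, 2.03 and 1.62 CPM in the 3M paired-end samples and at 3.20, 5.52 and 4.29 CPM at 29M. All 29M samples were above all 3M samples, and the log2 fold change was 1.34 ± 0.25 (SE, edgeR's quasi-likelihood test, adjusted p = 0.00992), a fitted fold of 2.53. In the single-end samples it read 2.32, 5.77, 2.37, 2.90 and 2.22 CPM at 3M and 5.01 (replicates 1 and 4), 5.01, 5.36, 4.98 and 4.73 CPM at 24M. The 24M samples lay close together, above 4 of the 5 samples at 3M and below 3M replicate 2. The log2 fold change of 0.70 ± 0.23 did not pass (adjusted p = 0.0833). With each library left out in turn it was 0.61 to 1.03 (edgeR adjusted p 0.00116 to 0.178). It was largest, and called, without 3M single-end replicate 2, the highest 3M sample.

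C5ar1, the C5a receptor (ENSMUSG00000049130, chr7:16246743-16259540, minus strand), was the lowest of the 8 genes, with 5 to 25 counts per sample. At 3M it stood at 0.682, 0.935, 0.706, 0.968 and 0.346 CPM and at 24M at 0.973 (replicates 1 and 4), 0.910, 1.29, 0.905 and 1.08 CPM. The groups overlapped, and the log2 fold change of 0.51 ± 0.26 did not pass (edgeR's quasi-likelihood test, adjusted p = 0.226). At 29M it read 1.01, 0.856 and 1.38 CPM, all above the 3M paired-end values of 0.594, 0.524 and 0.450 CPM. The mean log2 CPM was higher by 1.03 at 29M (exact permutation test, two-sided p = 0.1, the smallest that 3 against 3 samples allow). In the 7 alternative fits that let it pass the filter on low counts, its log2 fold change was 0.97 to 1.19 with adjusted p-values of 0.157 to 0.707.

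Itgam, the CD11b gene (ENSMUSG00000030786, chr7:128062640-128118491, plus strand), was higher in every aged sample than in every 3M sample of its library type, by less than the fold threshold. It read 26.8, 29.9, 30.2, 27.8 and 30.2 CPM at 3M and 34.9 (replicates 1 and 4), 36.0, 40.3, 39.4 and 39.6 CPM at 24M. Groups separated in this way, with all aged samples above, for 3.15% of all genes at 24M. The log2 fold change was 0.39 ± 0.06 (SE, edgeR's quasi-likelihood test, adjusted p = 0.0049), the smallest SE of the 8 genes at this age. In the paired-end samples it stood at 30.1, 30.2 and 26.1 CPM at 3M and at 34.4, 36.5 and 37.2 CPM at 29M (0.32 ± 0.07, adjusted p = 0.0309). Its exons share 3450 bases with the annotated gene Gm49368, which is not among the genes counted.

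Itgb2, the CD18 gene (ENSMUSG00000000290, chr10:77530252-77565708, plus strand), was the only one of the 8 genes called at both ages. It read 4.84, 5.69 and 4.32 CPM at 3M and 9.84, 10.3 and 9.95 CPM at 29M, with no overlap. The log2 fold change was 0.999 ± 0.13 (SE, edgeR's quasi-likelihood test, adjusted p = 0.00112), and it stayed called without any 1 of the 6 libraries (adjusted p 0.00308 to 0.0144). In the single-end samples it stood at 6.18, 10.4, 5.69, 6.22 and 6.42 CPM at 3M and at 11.3 (replicates 1 and 4), 10.7, 9.69, 10.3 and 9.35 CPM at 24M. Replicate 2 at 3M lay within the aged range and the other 3M samples below it. The log2 fold change of 0.56 ± 0.15 had an adjusted p of 0.0443, and the call was lost without 24M replicate 2, 3, 5 or 6 or 3M replicate 1, 3 or 4 (adjusted p 0.0619 to 0.107). Without 3M replicate 2 it was 0.74 (adjusted p = 0.00148).

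**Figure D3:**
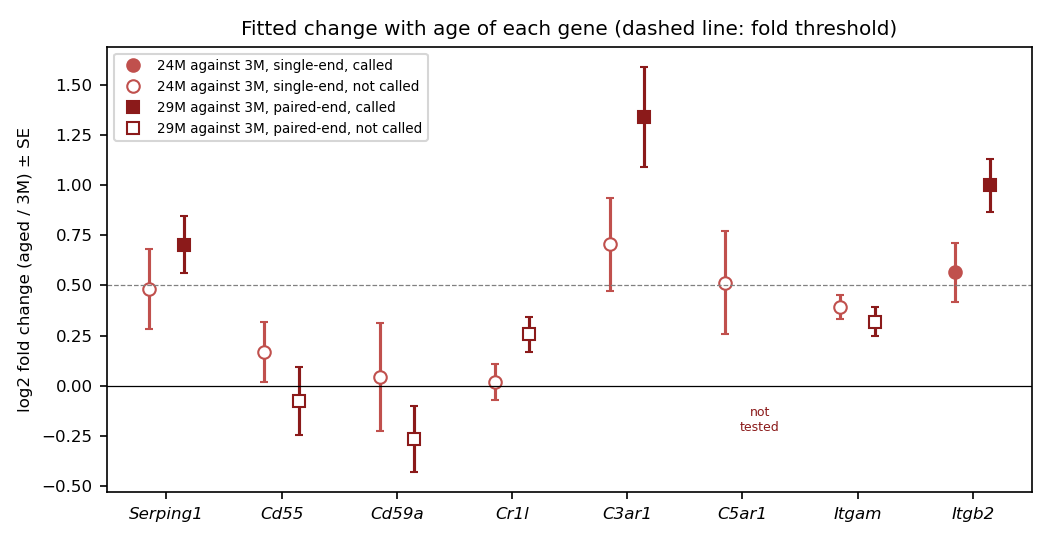
Log2 fold change between aged and 3M samples with its SE (vertical axis) for each gene (horizontal axis), circles for 24M and squares for 29M, filled where called. Serping1, C3ar1 and Itgb2 are filled at 29M with values of 0.70, 1.34 and 0.999, and Itgb2 at 24M with 0.56.

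The change at 29M was compared with that at 24M by a test of the difference itself, over all 4 groups. None of the 8 genes passed by edgeR or by DESeq2, and 0 of the 8 had an unadjusted p under 0.05 in edgeR. Over all 16055 genes tested 0% passed, while 10.4% had an unadjusted p under 0.05. The difference was largest for C3ar1 (0.64 ± 0.41 on the log2 scale, edgeR's quasi-likelihood test, adjusted p = 0.593), followed by C5ar1 (0.54 ± 0.44, adjusted p = 0.686) and Itgb2 (0.44 ± 0.23, adjusted p = 0.518). For Itgam it was -0.07 ± 0.10 (adjusted p = 0.817). A larger change of these receptors at 29M than at 24M is thus not shown.

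The beta chain was compared with the alpha chain of complement receptor 3 within each library. In the 3M paired-end samples Itgb2 counts were 16.1%, 18.8% and 16.6% of Itgam counts, and in the 29M samples 28.6%, 28.1% and 26.8%. The mean log2 ratio was higher by 0.70 at 29M, with no overlap (exact permutation test, two-sided p = 0.1, the smallest that 3 against 3 allow). In the single-end samples the ratio was 23.1%, 34.7%, 18.8%, 22.3% and 21.3% at 3M and 32.3% (replicates 1 and 4), 29.7%, 24.0%, 26.2% and 23.6% at 24M. This difference of 0.20 was within the spread (exact permutation test, two-sided p = 0.278). With each library left out in turn it was 0.12 to 0.34, with p from 0.0238 to 0.508 by the same test. The largest difference and the smallest p came without 3M replicate 2, the highest 3M sample.

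**Figure D4:**
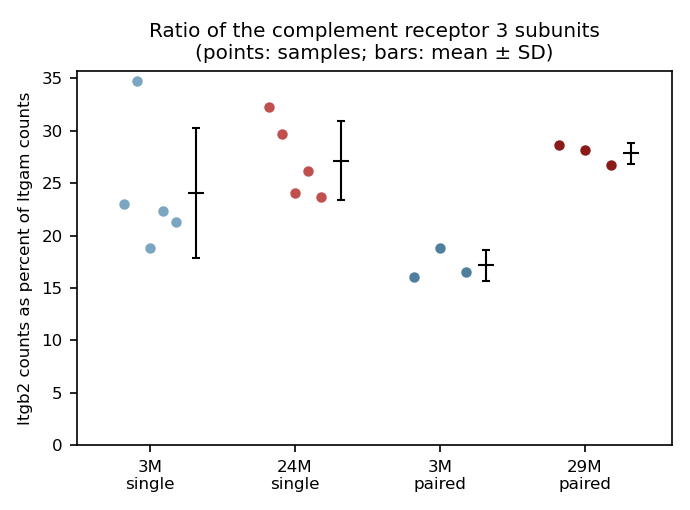
Itgb2 counts as a percentage of Itgam counts (vertical axis, from 0) in every sample of the 4 groups, with the mean and SD of each group. The 29M samples sit between 26.8% and 28.6%, above the 3M paired-end samples at 16.1% to 18.8%, and the single-end groups overlap.

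The receptors were also set against the microglia markers of the same sample, since in whole tissue more cells of a type and more RNA per cell cannot be told apart. The 12 homeostatic microglia markers (among them P2ry12, P2ry13, Tmem119, Cx3cr1, Csf1r, Aif1, Sall1, Siglech, Gpr34, Olfml3 and Fcrls) summed to 416 to 482 CPM at 3M and 515 to 550 CPM at 24M, and to 411 to 415 CPM at 3M and 509 to 523 CPM at 29M. Of these 12 genes 11 lay above 0 at each age, with median log2 fold changes of 0.32 and 0.33. P2ry12 was called at 24M (0.52 ± 0.13, edgeR adjusted p = 0.0342) and Tmem119 at 29M (0.51 ± 0.11, adjusted p = 0.0183). In the single-end samples r with this sum was 0.89 for Itgam and 0.90 for Itgb2 (permutation p = 0.00166 and 0.00159, both adjusted 0.0691). Spearman's rho was 0.82 and 0.79 (permutation p = 0.00598 and 0.00871, both adjusted 0.193). With the age group means subtracted r was 0.33 and 0.70. For Itgb2 the blood markers had a higher rho of 0.92 (permutation p = 0.00051, adjusted 0.053). Their r was 0.65 (permutation p = 0.0156, adjusted 0.177). Its r was 0.73 with monocytes and neutrophils, 0.74 with border macrophages and 0.74 with astrocytes (permutation p = 0.0158, 0.0196 and 0.015). These p-values were 0.177 to 0.189 after adjustment. In the paired-end samples r with the microglia sum was 0.91 for Itgam (exact permutation p = 0.0264, adjusted 0.211). For Itgb2 it was 0.98 (exact permutation p = 0.0403, adjusted 0.289). Subtracting the age group means left r at 0.37 and 0.24. With the astrocyte markers r was 0.96 and 0.99 there (exact permutation p = 0.00278 and 0.0125, adjusted 0.0825 and 0.177). Subtracting the age group means left these at 0.97 and 0.74. Per unit of the microglia sum Itgam differed by 0.01 on the log2 scale at 29M, with overlapping groups, and by 0.14 at 24M. C3ar1 was higher per unit of the sum by 1.04, C5ar1 by 0.71 and Itgb2 by 0.71 at 29M, each with all aged samples above all 3M samples. At 24M these 3 differences were 0.54, 0.33 and 0.34, and the groups overlapped. The sum itself was higher at 29M by 0.32 on the log2 scale, so an unchanged gene reads lower per unit of it. Cd59a was lower per unit of the sum at 29M by 0.57 with no overlap. Its CPM values overlapped (log2 fold change -0.27, edgeR's quasi-likelihood test, adjusted p = 0.44). Serping1 was higher per unit of the sum by 0.35 with overlap. The share of all genes whose groups separate per unit of the sum was not computed.

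Sequences just upstream show what is annotated at the starts of the myeloid receptor genes. RefSeq windows from 250 bases before to 50 bases after the start (GRCm38.p6) were at hand for 6 of the 8 genes (not Serping1 or Itgb2), and those of C3ar1, C5ar1 and Itgam are printed as they are the receptors with values above. On both strands 4 motifs were searched, the core of PU.1 sites (GAGGAA), the site of AP-1 (TGANTCA), that of STAT factors (TTCNNNGAA) and that of GATA factors (GATAAG). Matches are in capitals, each window reads 5′ to 3′ along the gene's strand, and no matches overlapped.
C3ar1, chr6:122856108-122856407, minus strand: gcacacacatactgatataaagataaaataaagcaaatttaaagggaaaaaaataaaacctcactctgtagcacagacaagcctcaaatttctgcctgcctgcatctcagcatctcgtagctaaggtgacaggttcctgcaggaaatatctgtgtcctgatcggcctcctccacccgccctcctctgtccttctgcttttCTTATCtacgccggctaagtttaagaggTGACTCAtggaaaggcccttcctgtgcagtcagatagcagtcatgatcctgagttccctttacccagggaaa
C5ar1, chr7:16259289-16259588, minus strand: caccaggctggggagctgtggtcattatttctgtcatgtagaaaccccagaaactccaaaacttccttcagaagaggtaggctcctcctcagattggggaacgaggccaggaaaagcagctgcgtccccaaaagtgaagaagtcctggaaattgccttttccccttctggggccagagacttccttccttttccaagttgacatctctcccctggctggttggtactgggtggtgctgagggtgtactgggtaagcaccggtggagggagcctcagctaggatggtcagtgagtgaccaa
Itgam, chr7:128062390-128062689, plus strand: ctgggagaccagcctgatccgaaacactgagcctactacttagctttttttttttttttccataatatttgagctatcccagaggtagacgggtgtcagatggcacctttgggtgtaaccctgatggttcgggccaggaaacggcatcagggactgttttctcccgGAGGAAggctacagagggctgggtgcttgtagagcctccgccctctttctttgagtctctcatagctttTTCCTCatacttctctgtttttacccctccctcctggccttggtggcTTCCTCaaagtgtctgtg
The C3ar1 window held 1 AP-1 match, TGACTCA, from position -22 relative to the start, and 1 reverse GATA match, CTTATC, from position -50. The Itgam window held 3 PU.1 cores, from positions -84, -15 and 33, and the C5ar1 window held none of the 4 motifs. Of all 32851 windows of this length, 7.81% held the AP-1 motif, 7.44% the GATA motif, 28.3% the PU.1 core and 8.30% the STAT motif. A match is a description of letters, and binding was not measured.

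For each called gene, the 3 genes with the most similar profile were taken from 14898 genes tested at both ages, by the root mean square difference of log2 CPM centred on the 3M mean, over 16 samples. Itgb2 was nearest to Myo1f (0.163), Uba7 (0.170) and H2-D1 (0.173). C3ar1 was nearest to Itgb2 (0.262), Xdh (0.271) and Ighm (0.300), and Serping1 to Sphk1 (0.164), Gpsm3 (0.188) and Mgp (0.191). Of these neighbours Ighm, the immunoglobulin M heavy chain gene, was called at both ages, at 0.97 (edgeR adjusted p = 0.00587) at 24M and 1.24 (adjusted p = 0.0125) at 29M. Myo1f, Uba7, H2-D1 and Xdh were called at 29M and not at 24M, with 29M log2 fold changes of 0.78, 0.77, 0.91 and 1.02. The 3 neighbours of Serping1 were not called, with 0.69, 0.64 and 0.50 at 29M (adjusted p 0.161 to 0.184).

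Other genes of the pathway were read from fixed lists. Of 14 other regulators 12 were tested at 24M, where 1 rose by edgeR's quasi-likelihood test and none fell. At 29M none of the 10 tested was called by edgeR and 2 had an unadjusted p under 0.05, among them Cd46 at 0.70 ± 0.26 (adjusted p = 0.181). The list's median log2 fold change was 0.08 at 24M and 0.03 at 29M, so most other regulators, Clu, Vtn and Susd4 among them, lay near 0. Of 5 other receptors, Itgax, the alpha chain of complement receptor 4 and a further partner of Itgb2, rose by 2.03 ± 0.32 at 24M (adjusted p = 0.0052). At 29M it rose by 3.10 ± 0.39 (adjusted p = 0.000732). Its level was low, 0.350 ± 0.181 CPM at 3M and 1.45 ± 0.45 CPM at 24M (SD, n = 5 each), and 0.303 ± 0.191 CPM at 3M and 2.52 ± 0.53 CPM at 29M (SD, n = 3 each). None of the other receptors was called, and Cd93 stood at -0.40 ± 0.10 at 24M (adjusted p = 0.0344), under the fold threshold.

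Of the 30 components and activating proteases 29 were matched and 14 tested at each age. C1qa, C1ra, C3 and C4b rose at 24M, by 0.55 ± 0.09, 0.78 ± 0.14, 2.04 ± 0.24 and 2.18 ± 0.15 on the log2 scale. C1qa, C1qb, C1qc, C3 and C4b rose at 29M, by 0.69 ± 0.07, 0.63 ± 0.08, 0.58 ± 0.07, 2.04 ± 0.13 and 2.79 ± 0.06, and none fell at either age. The list's median was 0.44 at 24M and 0.66 at 29M. Among the genes of other leukocyte integrins, their ligands and adaptors, Icam1, a ligand of Itgb2 integrins, rose at 29M (1.02 ± 0.21, edgeR's quasi-likelihood test, adjusted p = 0.0189) and stood at 0.58 ± 0.19 at 24M (adjusted p = 0.0784). Of the other alpha chain partners listed, Itgal was not called and Itgad, with 56 and 27 counts in all, was not tested. Tln1 passed the adjusted p alone at 29M (0.32 ± 0.06, adjusted p = 0.0113).

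**Figure D5:**
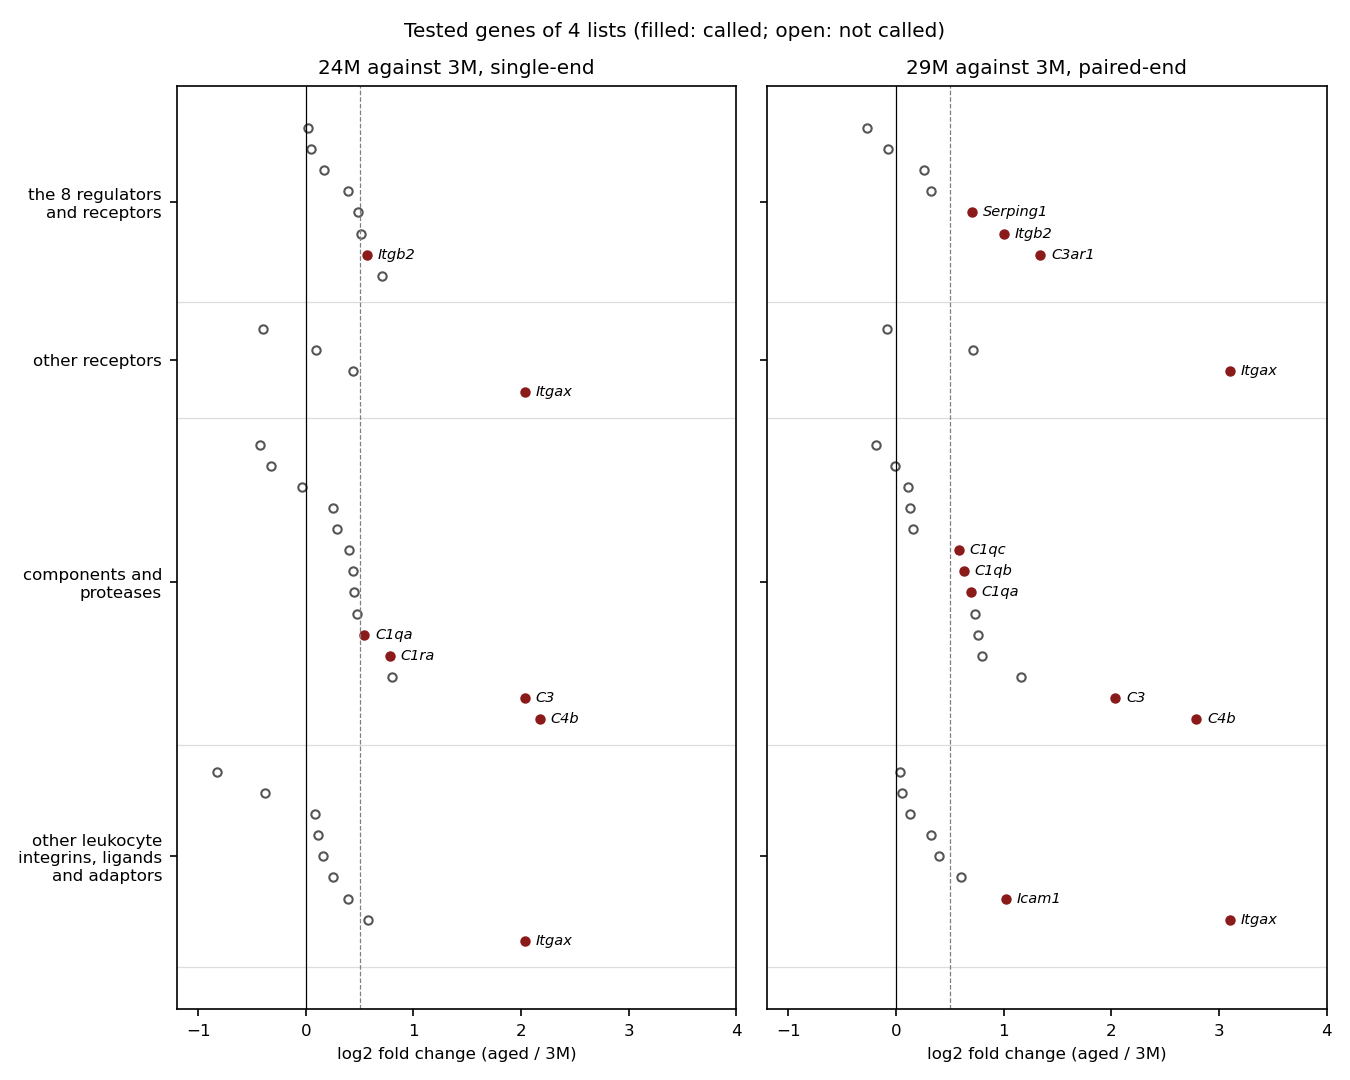
Log2 fold change (horizontal axis) of every tested gene of 4 lists (rows; the other regulators are not drawn), at 24M on the left and 29M on the right, filled and named where called. Itgax, C3 and C4b lie furthest to the right at both ages, at 2.03 to 3.10, and no called gene lies below 0.

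Markers of other cells that could carry these genes were read in the same way. Monocyte and neutrophil markers summed to 1.63 to 3.43 CPM at 3M and 2.22 to 6.15 CPM at 24M, and to 1.19 to 1.89 CPM at 3M and 1.38 to 3.23 CPM at 29M, and 1 of the 9 was tested at 24M and none at 29M. The neutrophil marker Ly6g was at 0 in every single-end library. At 24M the mean CPM was higher than at 3M for Ngp (0.709 against 0.108, without overlap), S100a8 (0.572 against 0.234) and S100a9 (1.12 against 0.591). Means of Ccr2, Camp and Mpo were also higher, and those of Ly6c2 (0.118 against 0.156) and Plac8 (0.148 against 0.243) lower. At 29M all S100a8 values lay above those at 3M (means 0.575 and 0.190 CPM) and all Mpo values below (0.192 and 0.347 CPM). Lymphocyte markers summed to 0.565 to 4.18 CPM at 3M and 0.876 to 2.09 CPM at 24M, with overlap, and to 0.764 to 1.62 CPM at 3M and 1.77 to 2.85 CPM at 29M, with none. None of the 10 passed the filter on low counts, so none was tested. Cd8a and Cd8b1, genes of cytotoxic T cells, were at 0 in every 3M paired-end sample and at 0.424 ± 0.116 and 0.425 ± 0.200 CPM at 29M (SD, n = 3). Blood markers were highest in 24M replicate 2 (544 CPM, against 53.3 to 159 CPM in the other single-end samples), and Hba-a1 and Alas2 rose at 29M (0.95 ± 0.21 and 0.85 ± 0.21, edgeR adjusted p = 0.0307 and 0.0478). Called genes of the other cell type lists included Gfap, an astrocyte filament gene (0.66 ± 0.06 at 24M and 0.80 ± 0.04 at 29M), Lum, a fibroblast gene (0.85 ± 0.20 at 24M), and Cldn5, an endothelial junction gene (-0.60 ± 0.13 at 24M). No mural cell, oligodendrocyte, neuron or choroid plexus marker was called at either age. The part of these cells in the values of the 8 genes was not tested. In 3M single-end replicate 2, where C3ar1, Itgb2 and Serping1 were highest of the 3M group, the microglia sum (482 CPM), border macrophage sum (12.3 CPM), monocyte and neutrophil sum (3.43 CPM), blood sum (108 CPM) and astrocyte sum (6698 CPM) were also the highest of that group, and those of the other 8 lists were not.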

How the data were processed

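PolyA RNA of 17 hippocampal libraries was prepared with the TruSeq kit. Per the labels and the study's methods, the authors aligned reads with STAR 2.3.0 to GRCm38.p2, counted them per gene with HTSeq and deposited raw counts. The annotation they counted on and the strand setting are not given in the sources used here, and reads mapping to several places were left out. Lines naming no gene held 23.9% to 40.3% of each total and stayed out of library sizes and tests. Of 38355 identifiers 36602 were named from GENCODE M21. Members, gene lists and tests were chosen with earlier results of these data known.

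Counts were tested with edgeR 4.0.16 in R 4.3.3 (quasi-likelihood, TMM, filterByExpr) after a check on simulated data. Each SE was the size of the log2 fold change over the square root of F. CPM used TMM library sizes. The genes named are the 8 members, called genes of the listed pathways and cell types, and the 3 nearest profiles of each called member, for which 0.1 CPM was added before taking logs. Correlations were tested with 100000 permutations for 10 samples and all permutations for 6. Alternatives were DESeq2 1.42.0, its size factors in edgeR, other filters, each library left out, a replicate block, thinning, the 24M pair kept apart or left out, 1 fit of 4 groups and no fold threshold. Without 3M single-end replicates 2 and 4 was added after seeing the data. With at most 25 C5ar1 counts per sample, counting error limits its precision. Scripts in Python 3.11.15 used scipy 1.17.1 and matplotlib 3.10.9. Values of some single genes of these lists are not reported here.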

Additional observations from a re-analysis of the deposited data

Results flagged for a closer look

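In 18 groups of 5 samples, 9 values in each of the 3M single-end and 24M groups, the gap of the most extreme sample to its neighbour was divided by the range of log2 values, and 3 exceeded Dixon's critical value, where chance gives 0.9. In the 3M single-end group replicate 2 was high for Itgb2 (gap 0.798 of the range) and for C3ar1 (0.720). At 24M replicate 3 was low for Serping1 (0.715). Without 3M replicate 2 the log2 fold change at 24M was 1.03 for C3ar1 and 0.74 for Itgb2. Without 24M replicate 3 that of Serping1 was 0.63, and each of them was called. Leaving out a sample picked for its extreme value raises these fold changes by construction, so the calls are no separate support. Over all 11 fits with 1 library left out, the adjusted p was 0.00116 to 0.178 for C3ar1. It was 0.00148 to 0.107 for Itgb2 and 0.0495 to 0.275 for Serping1 (edgeR). The cause was not tested. Groups of 3 were not examined.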

How the results depend on the processing

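At 24M the number of the 8 genes called was 1. It was 2 with DESeq2, with the 24M libraries kept apart, with all 4 groups in 1 fit and, in a setting chosen after seeing the data, without 3M single-end replicates 2 and 4 (C3ar1 and Itgb2 each time), and 2 with no fold change threshold (Itgam and Itgb2). It was 0 with libraries thinned to the smallest total and with 24M replicates 1 and 4 left out, and 0 to 2 with each library left out. At 29M it was 3, and 1 with all 4 groups in 1 fit (Itgb2), where the adjusted p was 0.337 for Serping1 and 0.0973 for C3ar1. With each library left out it was 2 to 3. Without a fold change threshold Itgam was called at 29M in addition to the 3 (edgeR's quasi-likelihood test, adjusted p = 0.0309). The log2 ratio of Itgb2 to Itgam differed by 0.12 to 0.34 at 24M and by 0.66 to 0.77 at 29M with each library left out. No gene was called for the difference between ages under any setting run. Signs turned only for genes near 0: Cd59a at 24M was -0.010 with the replicate block, -0.017 with the 24M libraries kept apart and -0.16 to 0.25 with each library left out, Cr1l at 24M was -0.037 to 0.072, and Cd55 at 29M was -0.25 to 0.13. Of the 486 values for single genes under alternatives, 455 kept direction and side of the threshold, 15 lost a call, 8 gained one and 8 turned sign. The cause of these shifts was not tested. Leaving out a library changes both the group size and the values in it.

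Replicate numbers are shared between groups, and no pairing by number was seen. The correlation of deviations between same-numbered samples was -0.18 to 0.04 at 24M and -0.07 to 0.10 at 29M. With so few samples per group these values cannot exclude a pairing. With the replicate number as a block, 1 gene was called at 24M (24M libraries kept apart), 3 at 29M and 0 for the difference between ages. The Itgb2 to Itgam log2 ratio differed by 0.29 at 24M (exact permutation p = 0.125, signs changed within pairs). At 29M it differed by 0.70 (exact permutation p = 0.25, the smallest that 3 pairs allow).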
